A study of Mus musculus with 8 samples.

Results

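The genes of glycolysis and of the response to low oxygen were followed through the accessible chromatin of mouse macrophages. The set comprised 35 named genes. Of these, 32 held at least 1 accessible region, and together they held 193 of the 61954 regions that could be given to a protein-coding gene, out of 76751 regions in all. The members were a fixed list of names: overlapping peaks of all libraries were merged into regions, each region went to the protein-coding gene whose annotated span had an end nearest to the region's summit, within 50 kb, and the regions of the listed genes were kept.

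Accessibility had been mapped with ATAC-seq, an assay whose Tn5 transposase cuts and tags open DNA, in macrophages grown from bone marrow over 7 days. Wild-type cells (WT) were compared with cells lacking Lamin-A (KO), the product of Lmna and a filament of the layer that lines the nucleus. Cells stayed untreated or were exposed for 6 h to lipopolysaccharide (LPS), a component of bacterial walls that TLR4 senses. The 4 groups were WT untreated, WT LPS, KO untreated and KO LPS, with 2 libraries each, so the study asked what LPS does to the chromatin and what the loss of Lamin-A changes. All 8 libraries came from cells that were harvested, frozen with 5% DMSO, thawed, lysed and tagmented, followed by 10 cycles of PCR. The labels give no LPS dose, do not say which part of Lmna was deleted, and leave out the animals' sex. They also do not tell whether replicates of a group came from separate animals, so replicate spread may be technical. For the libraries titled LPS the source name carries both LPS and untreated, whereas title and treatment field say LPS alone, and the titles were followed.

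In glycolysis a glucose molecule is taken up by a transporter, phosphorylated by a hexokinase, committed to breakdown by phosphofructokinase, split and converted to pyruvate, which lactate dehydrogenase can turn into lactate. HIF-1, a transcription factor made of the subunits Hif1a and Arnt, switches on most of these genes in low oxygen by binding a short motif with the core ACGTG or GCGTG. When oxygen is plentiful, prolyl hydroxylases such as Egln1 mark Hif1a for destruction through Vhl. Macrophages exposed to LPS are known to stabilise Hif1a and shift towards glycolysis even with oxygen present.

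The 8 peak lists differed in length, and this bears on every count below. They held 44504 to 59750 peaks over 17.9 to 24.96 Mb, and every KO list (44504 to 49661 peaks) was shorter than every WT list (53942 to 59750). Read totals were not used here. The labelled cell type could be checked against 9 macrophage genes, all of which held a region called in all 8 libraries. Among markers of other cells, 3 of 5 B cell, 4 of 6 T and NK cell, 4 of 5 neutrophil and 5 of 5 stromal and endothelial genes held a region somewhere, and Cd79a, Cd79b, Cd3g, Cd8a and Mpo held none. A region called in all 8 libraries was held by 2 B cell and 2 T and NK cell genes. The same was true of 2 neutrophil and 4 stromal and endothelial genes. The summed number of stromal and endothelial marker regions was 10 to 12 in WT untreated, 15 to 18 in WT LPS, 6 to 9 in KO untreated and 8 to 12 in KO LPS libraries. An open region near a gene does not show that the gene is transcribed, and the part of other cells in the results below was not tested.

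The promoters of the genes on which the results turn are shown here because they lie under the start regions described below. The 250 bases before the annotated start were taken from the RefSeq table for GRCm38.p6, the build also called mm10, which lists 51 starts for 34 of the 35 members. The stretches are chr12:73907617-73907866 on the plus strand for Hif1a, chr7:46845554-46845803 on the plus strand for Ldha, chr6:125165774-125166023 on the minus strand for Gapdh and chr19:41911621-41911870 on the plus strand for Pgam1. Pfkfb3 has an upstream start, preceded by chr2:11553930-11554179, and an inner start, preceded by chr2:11502091-11502340, both on the minus strand. Each is written 5′ to 3′ in the direction of the gene, with capitals marking the HIF-1 core motifs ACGTG and GCGTG or their reverse complements CACGT and CACGC, and overlapping matches run together.
Hif1a: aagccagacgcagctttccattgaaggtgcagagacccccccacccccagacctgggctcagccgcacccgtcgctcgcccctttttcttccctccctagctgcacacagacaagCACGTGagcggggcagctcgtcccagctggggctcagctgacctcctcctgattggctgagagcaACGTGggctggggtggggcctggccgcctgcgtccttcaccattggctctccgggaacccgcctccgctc
Ldha: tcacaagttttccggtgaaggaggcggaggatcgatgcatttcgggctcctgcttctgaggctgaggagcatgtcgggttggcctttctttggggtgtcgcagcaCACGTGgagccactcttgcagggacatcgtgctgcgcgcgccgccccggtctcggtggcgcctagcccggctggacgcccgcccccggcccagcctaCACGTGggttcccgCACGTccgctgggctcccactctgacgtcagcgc
Gapdh: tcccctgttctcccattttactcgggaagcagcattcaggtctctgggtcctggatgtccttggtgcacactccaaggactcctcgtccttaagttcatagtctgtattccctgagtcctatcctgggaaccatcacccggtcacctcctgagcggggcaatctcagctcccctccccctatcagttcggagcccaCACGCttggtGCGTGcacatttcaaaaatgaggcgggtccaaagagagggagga
Pgam1: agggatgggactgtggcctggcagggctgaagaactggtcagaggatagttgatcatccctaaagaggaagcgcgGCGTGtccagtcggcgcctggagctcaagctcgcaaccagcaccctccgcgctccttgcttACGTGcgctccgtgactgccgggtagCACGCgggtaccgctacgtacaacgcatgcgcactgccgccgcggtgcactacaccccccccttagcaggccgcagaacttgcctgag
Pfkfb3 upstream start: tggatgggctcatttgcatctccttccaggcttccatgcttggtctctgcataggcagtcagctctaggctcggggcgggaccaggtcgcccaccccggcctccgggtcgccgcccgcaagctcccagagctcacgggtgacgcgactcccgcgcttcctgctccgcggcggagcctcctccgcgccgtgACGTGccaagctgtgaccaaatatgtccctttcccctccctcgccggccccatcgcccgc
Pfkfb3 inner start: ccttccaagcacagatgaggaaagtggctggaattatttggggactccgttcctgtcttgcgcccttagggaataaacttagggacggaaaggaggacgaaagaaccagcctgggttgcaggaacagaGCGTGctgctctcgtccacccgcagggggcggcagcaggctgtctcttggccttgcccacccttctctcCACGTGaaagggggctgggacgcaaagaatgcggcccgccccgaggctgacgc

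The Ldha promoter carried 3 such capital runs, 2 of them the palindrome CACGTG that holds the core on both strands, and Hif1a carried 2. In the 250 bases shown Gapdh carried only the GCGTG form, as 2 runs, while the longer window used next also held 1 ACGTG. Over windows of 300 bases, from 250 before to 50 after each start, ACGTG on either strand was present in 26 of 51 member promoters (51.0%) and in 19.6% of all 32851 promoters in the table. GCGTG was present in 28 of 51 (54.9%) against 32.4% of all, and at least 1 of the 2 motifs in 40 of 51 (78.4%) against 43.8%. A match describes the letters in this window and does not show that HIF-1 was bound.

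Regions were described in 2 ways. By presence, a region counted as gained where a peak was found in each library of one group and in none of the group it was compared with, and as lost where this was the other way round. Such a call has no p-value, because the smallest exact p for 2 libraries against 2 is 0.333. By rank, for the 97 member regions called in all 8 libraries, the fold enrichment that the authors' peak caller gave each peak was turned into a rank, a percentile from 0 to 100 among the 30960 regions called in all 8 libraries. Such a rank is relative to other regions and holds no read count. A region was called higher or lower when the ranks of the groups did not overlap within WT and within KO (or, for genotype, within untreated and within LPS), in the same direction; this equals an exact two-sided permutation p of 0.0556, the smallest that 36 arrangements allow, so no single region could pass 0.05. Between replicates of a group, ranks of member regions differed by a median of 3.84 to 6.23 points. For regions missing from some libraries, a percentile within the whole list of each library is given as a description only, because the lists differ in length.

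The regions were unevenly spread over the genes. Pfkfb3 held 26, Hk2 20, Slc2a1 13, Hif1a 12 and Hk1 10, and the others held 1 to 9. Pfkfb2, Eno3 and Pdk4 had none. Pdk4, a kinase that shuts off pyruvate dehydrogenase, had no region within 50 kb, and the 2 regions inside Pfkfb2 and the 2 inside Eno3 lay nearer to the ends of neighbouring genes and were assigned to those. Of the 193 regions, 97 were called in all 8 libraries and 20 in a single library. WT untreated libraries held 140 and 145 of them, WT LPS libraries 166 and 155, KO untreated libraries 131 and 132, and KO LPS libraries 139 and 130. Thus WT LPS libraries held the most, and KO libraries fewer than WT libraries in both treatments.

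**Figure D1:**
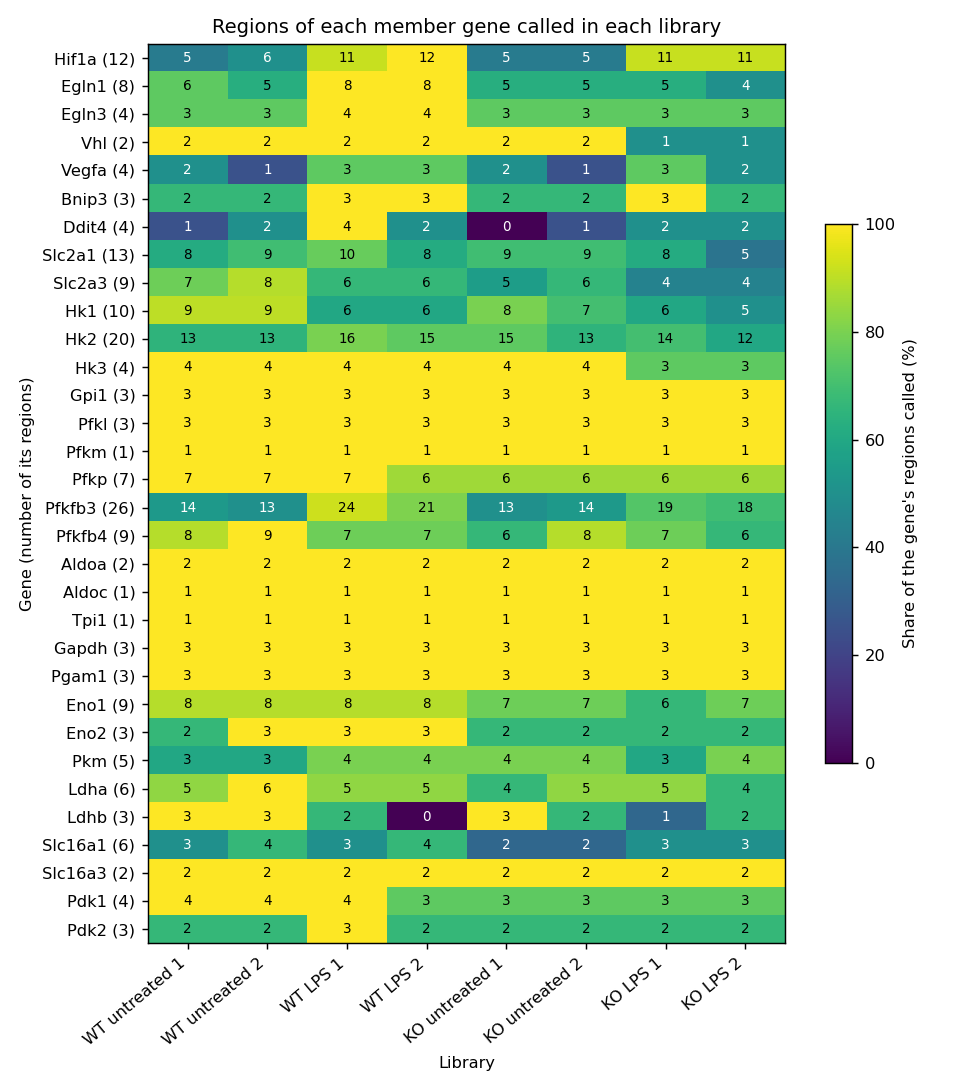
Regions of each member gene called in each of the 8 libraries; the number in a cell is the count, the colour the share of that gene's regions (in percent), and the number beside the gene name is its total. Hif1a and Pfkfb3 gain regions in the LPS columns of both genotypes, while enzymes such as Gapdh, Tpi1 and Aldoa hold all of theirs in every library.

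With LPS, 21 of the 193 member regions (10.9%) were gained in WT, where 9.27% of all assigned regions were gained, and 5 (2.59%) were lost, where 5.82% of all were lost. With equal numbers of peaks 10 were lost (5.18%, background 6.08%), 1 of them among the 5. Where a −log10 p of 20 or more was required, 9 were lost (4.66%, background 5.34%), 2 of them among the 5. In KO, 16 (8.29%) were gained against a background of 7.3%, and 11 (5.70%) were lost against 5.38%. In both genotypes 9 (4.66%, background 4.33%) were gained and 1 (0.518%, background 1.69%) was lost, a count that rose to 2, 3 and 4 when peaks had to cover at least 50% of the region, reach a −log10 p of 20, or come from lists of equal length. Gained calls also changed with the setting. With a −log10 p of 20 or more required, 14 were gained in WT (7.25%, background 7.29%). With equal numbers of peaks 15 were (7.77%, background 6.83%), and under each setting 9 were among the 21. The 9 gained in both genotypes became 8 and 7 under these settings, with 4 and 5 of them among the 9. As a set, then, the members gained regions at about the rate of all genes. By gene, 9 of the 32 had a gained region in WT (28.1%, where 24.4% of the 15356 genes with a region did) and 9 in KO (28.1%, background 20.9%). The 32 genes held 193 regions and the 15356 genes 61954, and genes with more regions have more chances of a call. Shares by gene were not adjusted for this. The 9 regions gained in both genotypes lay in 4 of the 32 genes (12.5%, background 13.5%), namely Hif1a with 5, Pfkfb3 with 2, and Egln1 and Vegfa with 1 each. All 9 lay more than 1 kb from any annotated start, among 151 such member regions (5.96%, background 5.11%). At starts 0 of 42 were gained in both (background 1.08%), so this placement is near that of all regions. Of the 42 member regions at starts, 2 were gained in WT (4.76%, background 2.66%), and 0 in KO (background 2.1%). The 2 were the Egln1 region described below and a region assigned to Hk2 but 58.6 kb from the Hk2 start, near an annotated start of another gene.

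**Figure D2:**
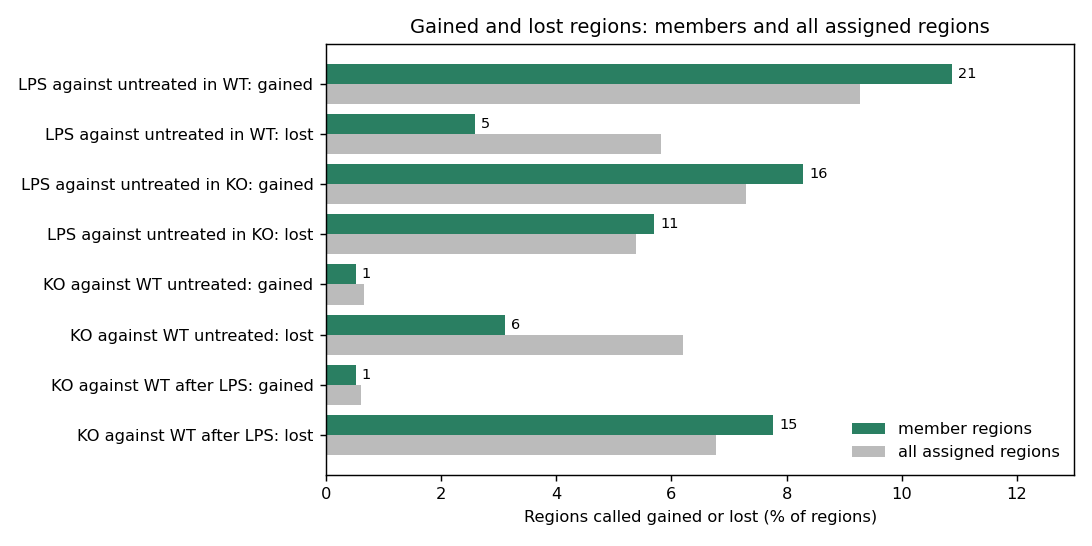
Share of regions gained or lost in each comparison (percent of regions), for the 193 member regions (green, with the number called) and all 61954 assigned regions (grey). With LPS in WT, 21 member regions were gained and 5 lost; in KO against WT after LPS, 1 was gained and 15 lost.

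Hif1a, the oxygen-regulated subunit of HIF-1, had the most regions gained in both genotypes of all members. It held 5 and 6 called regions in the WT untreated libraries, 11 and 12 in WT LPS, 5 and 5 in KO untreated, and 11 and 11 in KO LPS, so the counts with and without LPS did not overlap in either genotype. In WT 5 and in KO 6 regions were gained and none was lost, and the same 5 were gained in both. Across the genome 9 of 15356 genes (0.0586%) gained at least 5 regions in both genotypes, a threshold set after the count for Hif1a was seen. Hif1a held 12 regions, and a gene with fewer than 5 could not reach this threshold.

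The most enriched of the gained Hif1a regions lay 19.7 kb before the start (chromosome 12, 73887977 to 73888457, outside the gene). It stood at percentiles 69.5 and 83.6 of the WT LPS lists and 55.3 and 60.9 of the KO LPS lists, with fold enrichments of 9.62, 12.1, 7.79 and 8.05, and was not called in any of the 4 untreated libraries. A region 11.1 kb before the start (73896534 to 73896876) stood at 46.2 and 48.2 in WT LPS and 49.0 and 49.3 in KO LPS. Both had peaks well inside the lists in all 4 LPS libraries. A region inside the gene, 26.8 kb after the start (73934480 to 73934872), stood at 67.2, 31.3, 15.7 and 67.3, which shows a wide spread between replicates. The regions at 31.3 kb before (73876410 to 73876911; percentiles 16.9, 4.23, 7.76 and 7.81) and 2.6 kb before the start (73905064 to 73905350; 3.50, 5.47, 1.96 and 2.99) were among the weaker peaks of the LPS lists. With every list cut to its 44504 strongest peaks, 2 of these 5 remained gained in both genotypes, and also 2 with a −log10 p of at least 20 required. Those left in both cases were the regions at 19.7 and 11.1 kb.

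Between these gained regions lay a Hif1a region that was called in every library and ranked higher with LPS. It lies 9.0 kb before the start (73898722 to 73899171) and had ranks of 3.23 and 3.91 in WT untreated, 58.2 and 32.0 in WT LPS, 15.4 and 10.2 in KO untreated, and 52.5 and 55.5 in KO LPS libraries. Every LPS library stood above every untreated one, and the mean difference was 41.3 points (exact permutation p = 0.0556). By fold this was the largest among the members, next to an Hk2 region at 41.2, while by −log10 p it was 46.6, below that Hk2 region (51.4) and a Pfkfb3 region (51.2). The next region (73901149 to 73901566) lay at the 5′ end of the annotated gene span, 6.5 kb before the start used here. The RefSeq promoter table lists only 1 start for Hif1a, so this region was counted as away from starts. It differed the other way, from 73.2 and 64.7 to 23.5 and 49.6 in WT and from 62.1 and 52.7 to 34.3 and 35.97 in KO, a mean difference of -27.3. That call was lost when ranks were taken from the −log10 p (-8.07). The Hif1a start region (73907430 to 73908234) ranked 74.2 and 74.7 in WT untreated and 73.6 and 63.6 in WT LPS, a small difference beside that of the region 9.0 kb upstream.

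**Figure D3:**
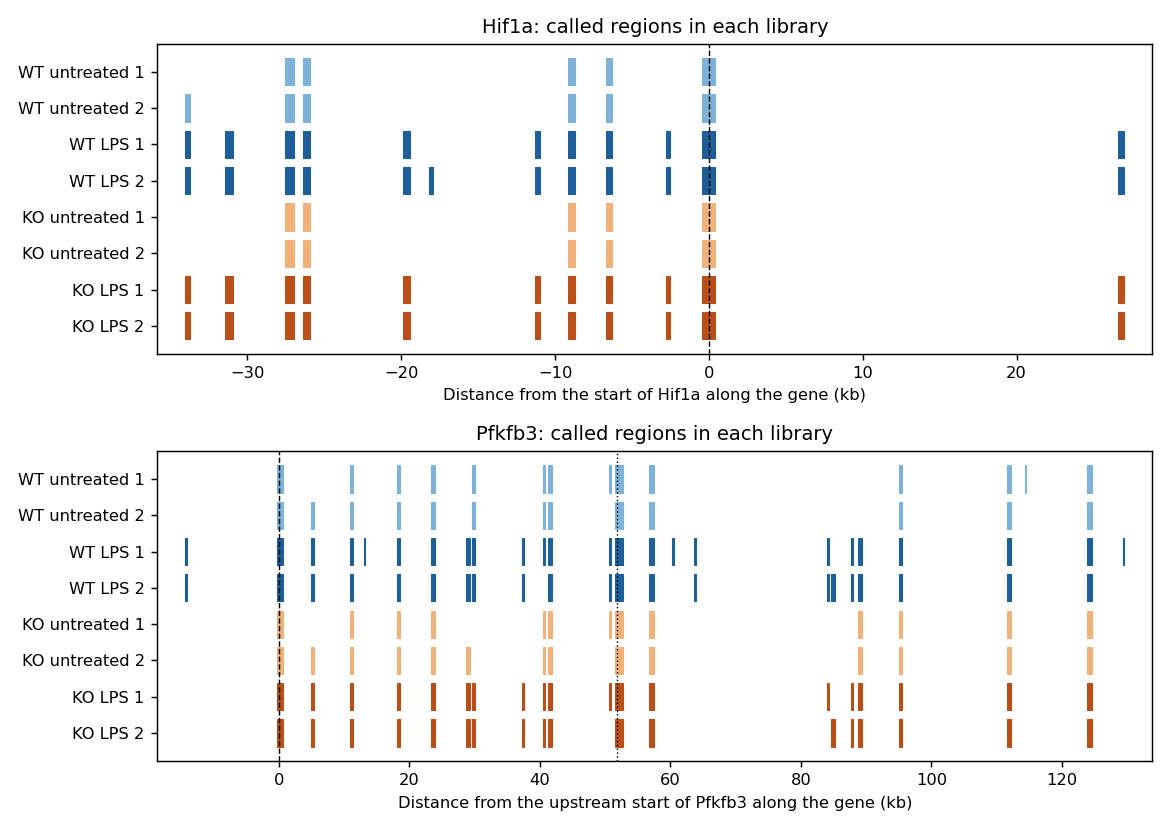
Called regions along Hif1a and Pfkfb3 in each library, as distance in kb from the start in the direction of the gene, with each bar spanning its region; the dashed line is the start (for Pfkfb3 the upstream one) and the dotted line the inner start of Pfkfb3. LPS rows hold 11 or 12 Hif1a regions against 5 or 6 in untreated rows, and 18 to 24 Pfkfb3 regions against 13 or 14.

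The other genes of oxygen sensing had fewer such regions. Egln1, the main prolyl hydroxylase acting on Hif1a, gained a region 5.6 kb before its start in both genotypes (chromosome 8, 124954662 to 124955047), at percentiles 59.7 and 55.4 in WT LPS and 41.9 and 48.2 in KO LPS. In WT alone it also gained a weak region 0.7 kb after the start (124948356 to 124948690; 6.14 and 6.54). Egln3, a hydroxylase that is itself a HIF-1 target, gained a region in WT LPS 5.5 kb before its start (chromosome 12, 54209249 to 54209531; 21.7 and 36.5) that was called in no KO library. That gain ended with a −log10 p of at least 20 required and with equal numbers of peaks. Vhl, the substrate receptor of the ligase that destroys Hif1a, held both of its regions in all WT and KO untreated libraries, but the region inside the gene, 6.5 kb after the start (chromosome 6, 113630196 to 113630780), was lost in KO with LPS. Its percentiles were 66.6 and 75.7 in WT untreated, 17.6 and 23.1 in WT LPS and 60.6 and 69.0 in KO untreated, so it was also low in the WT LPS lists that held it. It counted as lost with LPS in both genotypes when peaks had to cover at least 50% of the region. The same held with a −log10 p of at least 20 required and with equal numbers of peaks. The role as a whole held 16 and 16 regions in WT untreated, 25 and 26 in WT LPS, 15 and 15 in KO untreated and 20 and 19 in KO LPS libraries.

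Among HIF-1 targets outside glycolysis, Vegfa, an angiogenic growth factor, gained a region 37.7 kb before its start in both genotypes (chromosome 17, 46069932 to 46070297). Its percentiles were 26.8 and 12.3 in WT LPS and 5.10 and 31.0 in KO LPS, and with equal numbers of peaks only 1 of the 2 LPS libraries of each genotype still held it. Bnip3, a mitochondrial protein of mitophagy, had lower ranks with LPS at its start (chromosome 7, 138909236 to 138910125): 62.5 and 60.3 in WT untreated, 46.0 and 44.2 in WT LPS, 52.6 and 72.3 in KO untreated, and 50.8 and 33.2 in KO LPS. The groups did not overlap within either genotype, and the mean difference was -18.4. Ddit4, a stress-induced inhibitor of mTORC1, had a region 19.0 kb from its start (chromosome 10, 59932489 to 59932953) that was called in all libraries but the KO untreated pair, with percentiles of 51.1, 50.8, 70.8 and 60.3 in WT and 44.2 and 19.4 in KO LPS. Another, 8.1 kb from its start (59943268 to 59944038), stood at 61.8 and 66.2 in WT LPS and 62.7 and 61.7 in KO LPS. It was also called in 1 WT and 1 KO untreated library, at 6.43 and 16.5, which kept it out of the gained regions. With a −log10 p of at least 20 or a cover of at least 50% required, it counted as gained in both genotypes.

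Pfkfb3 was the other gene with many gained regions. It encodes the enzyme form that makes the strongest allosteric activator of phosphofructokinase. It held 14 and 13 called regions in WT untreated, 24 and 21 in WT LPS, 13 and 14 in KO untreated, and 19 and 18 in KO LPS libraries, again without overlap between treated and untreated in either genotype. In WT 7 of its 26 regions were gained and in KO 3. The 7 became 6 with a −log10 p of at least 20 or with equal numbers of peaks. Under each setting, 5 of these 6 were among the 7. Across the genome 14 of 15356 genes (0.0912%) gained at least 7 in WT, a threshold set after the count for Pfkfb3 was seen, and genes with more regions can gain more. The 2 gained in both lay inside the gene, 14.4 kb before the inner start (chromosome 2, 11516347 to 11516735; percentiles 31.6 and 20.7 in WT LPS, 5.07 and 6.79 in KO LPS), and 5.3 kb beyond the 3′ end of the span (11465967 to 11466217; 4.76 and 2.85, 2.13 and 4.06).

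The strongest region that Pfkfb3 gained in WT lay inside the gene, 22.9 kb before the inner start (11524694 to 11525264). It stood at percentiles 84.9 and 80.9 in WT LPS and 81.7 and 86.1 in KO LPS, was not called in WT untreated, and was called in 1 KO untreated library at 10.8, which kept it out of the regions gained in KO. The 4 LPS libraries were thus alike and all high. The Pfkfb3 regions called in all libraries differed in both directions. Ranks 10.2 kb before the inner start (11512114 to 11512739) were 9.02 and 11.2 in WT untreated, 42.3 and 36.9 in WT LPS, 16.1 and 18.8 in KO untreated, and 48.9 and 34.8 in KO LPS, a mean difference of 26.9. The region 23.6 kb after the upstream start (11530045 to 11530658) was higher by 25.9, and that 5.3 kb after the inner start (11496477 to 11497180) differed by -23.8.

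The 2 start regions of Pfkfb3 differed in their calls. At the inner start (11501220 to 11502357) ranks were 43.7 and 52.3 in WT untreated, 65.1 and 59.7 in WT LPS, 50.2 and 51.8 in KO untreated, and 71.4 and 73.2 in KO LPS, higher with LPS by 17.9 points. At the upstream start (11553260 to 11554195) they were 44.3 and 70.6, 57.4 and 60.7, 57.4 and 58.6, and 55.2 and 56.4 in the same order, a mean difference of -0.258 with overlapping groups. The difference between the starts was not tested. The Pfkfb3 region with the highest mean percentile lay 29.3 kb beyond the 3′ end (11441738 to 11442385) and ranked 95.9 to 98.7 in all 8 libraries.

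The related Pfkfb4 and the phosphofructokinase subunits Pfkl, Pfkm and Pfkp gained no region. The start region of Pfkfb4 (chromosome 9, 108991391 to 108992133) was higher with LPS by 6.78, a call lost with ranks from the −log10 p (0.0347), while a region inside the gene 25.5 kb after the start (109017105 to 109017551) was lower: 49.5 and 46.6 in WT untreated, 30.8 and 5.96 in WT LPS, 49.7 and 43.2 in KO untreated, and 14.3 and 24.7 in KO LPS. The start regions of Pfkl and Pfkp overlapped between treatments.

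The glucose transporters had few calls, yet several of their regions called in all libraries ranked higher with LPS. Slc2a1, the widely expressed transporter GLUT1, gained no region in WT and 1 weak one in KO, and lost 2 in KO with LPS (chromosome 4, 119068976 to 119069281 and 119118781 to 119119190). Of its regions called in all libraries, those 26.0 kb before, 2.9 kb before and 17.0 kb after the start were higher with LPS by 24.4, 17.9 and 24.8 points. The most enriched of them (119082448 to 119083212) ranked 49.9 and 43.7 in WT untreated, 56.4 and 68.5 in WT LPS, 26.8 and 39.4 in KO untreated, and 64.3 and 68.1 in KO LPS. Its start region (119108441 to 119109409) had overlapping groups by fold, with ranks of 27.9 and 36.1, 34.0 and 49.8, 52.0 and 40.6, and 36.4 and 51.1. With ranks from the −log10 p it was called higher with LPS, by 13.6 points. Slc2a3, the high-affinity transporter GLUT3, had a region 8.7 kb outside its span (chromosome 6, 122810631 to 122812029) that was higher by 6.74, and another inside it (122758658 to 122759173), among the strongest of all at ranks of 95.0 to 99.7, that differed by -3.06.

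Hexokinases phosphorylate glucose on entry. Hk2, the inducible form, had a region 21.2 kb after its start (chromosome 6, 82752946 to 82753588) with ranks of 8.78 and 19.8 in WT untreated, 49.5 and 44.3 in WT LPS, 17.7 and 25.6 in KO untreated, and 74.1 and 68.9 in KO LPS. That difference was 41.2 points. Another Hk2 region 23.3 kb before the start (82797288 to 82798266) was higher by 23.3, whereas the start region (82774247 to 82774873) differed by -6.33, a call lost with ranks from the −log10 p (-1.30). Hk1, the form expressed in most tissues, had neighbouring regions with opposite calls inside the gene. That 27.1 kb after its nearest start (chromosome 10, 62313170 to 62313568) was higher by 34.2, from 8.10 and 2.15 to 38.0 and 53.5 in WT and from 3.56 and 3.81 to 23.3 and 39.8 in KO. The weak one next to it (62313846 to 62314145; percentiles 3.86 and 4.49 in WT untreated, and 3.36 to 11.7 in KO) was lost in WT with LPS. By the main presence rule, Hk1 also held the only member region lost with LPS in both genotypes, 9.0 kb before a start (62349309 to 62349620). Its percentiles were 33.6 and 11.8 in WT and 21.0 and 47.6 in KO untreated. With a −log10 p of at least 20 required, this call ended in both genotypes, and with equal numbers of peaks it ended in WT. The Vhl region inside the gene was instead lost in both genotypes under these settings.

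**Figure D4:**
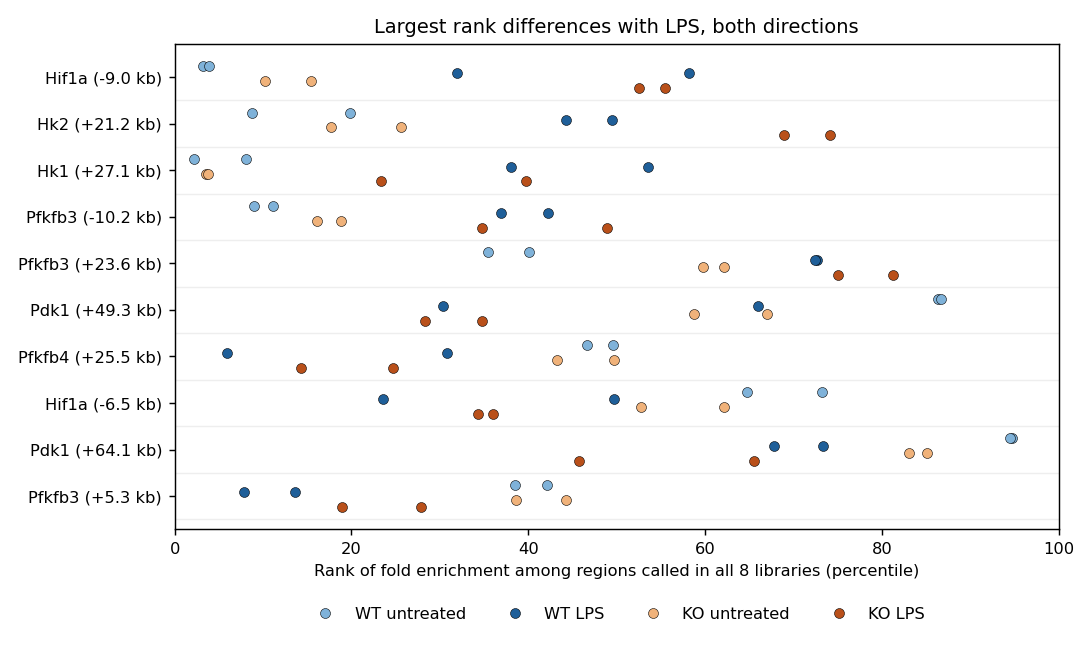
Rank of fold enrichment (percentile among regions called in all 8 libraries) in each library for the 5 member regions with the largest positive and the 5 with the largest negative difference with LPS; the distance from the nearest annotated start of the gene is in brackets and each point is 1 library. The top 5 differ by 25.9 to 41.3 points and the lower 5 by -23.8 to -34.9.

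Among the other glycolytic enzymes, every region of Gpi1, Aldoa, Aldoc, Tpi1, Gapdh and Pgam1 was called in all 8 libraries. Pkm, pyruvate kinase, gained a weak region in WT 21.3 kb after its start (chromosome 9, 59678373 to 59678688; 14.6 and 4.32). Eno1, the main enolase, had a region 17.0 kb before its start (chromosome 4, 150219508 to 150219870) that KO untreated libraries lacked, at percentiles 33.0 and 49.9 in WT untreated, 19.0 and 57.3 in WT LPS and 22.6 and 20.8 in KO LPS. A region inside Eno1 (150242796 to 150243282) was lost in KO with LPS, having stood at 52.3 and 41.7 in WT untreated, 14.0 and 13.9 in WT LPS and 60.1 and 57.9 in KO untreated. This was the order also seen at the Vhl region, low in WT LPS and missing in KO LPS. Eno2, the enolase of neurons, lost a region 0.6 kb beyond its span in KO with LPS (chromosome 6, 124759357 to 124759694), which stood at 44.9 and 18.3 in WT untreated, 24.5 and 14.7 in WT LPS and 23.8 and 30.2 in KO untreated. It also gained a weak region in KO, 1.1 kb after its start (124768343 to 124768866; 7.401 and 19.0), that 1 WT untreated and both WT LPS libraries held.

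For lactate, Ldha, which turns pyruvate into lactate, had a start region (chromosome 7, 46845464 to 46846128) with ranks of 58.0 and 62.4 in WT untreated, 46.8 and 39.1 in WT LPS, 73.4 and 73.1 in KO untreated, and 65.2 and 66.5 in KO LPS, a mean difference of -12.3 with LPS. Slc16a1, a lactate carrier, gained a region in WT 16.5 kb before its start (chromosome 3, 104622015 to 104622348; 33.1 and 13.5) and lost another 24.7 kb beyond its span (104683012 to 104683317) that only the WT untreated libraries held, at 39.0 and 37.9. Ldhb, the form that favours pyruvate, lost a region 17.1 kb before its start in WT (chromosome 6, 142524909 to 142525180; 30.5 and 25.4), and 1 WT LPS library held none of the 3 Ldhb regions. Slc16a3, the carrier that exports lactate, had a weak start region, ranked 0.120 to 9.43, whose groups overlapped.

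Pyruvate dehydrogenase kinases shut off pyruvate dehydrogenase. Pdk1, a HIF-1 target, had a region 20.4 kb beyond its span with the most negative LPS difference of the members by fold, though not by −log10 p (-27.6, against -33.9 at Pfkfb4). That region (chromosome 2, 71923971 to 71924470) ranked 86.4 and 86.6 in WT untreated, 65.9 and 30.3 in WT LPS, 58.7 and 67.0 in KO untreated, and 34.7 and 28.3 in KO LPS, a mean difference of -34.9. Another, 35.1 kb beyond the span (71938728 to 71939325), differed by -26.2. The Pdk1 start region (71872819 to 71873600) stayed at ranks of 88.8 to 96.2 with overlapping groups. Pdk2 had neighbouring start regions with opposite calls: the main one (chromosome 11, 95041165 to 95041717) went from 85.3 and 80.8 to 95.1 and 94.2 in WT and from 85.5 and 87.4 to 97.7 and 93.0 in KO, while the weak one upstream (95042129 to 95042509) differed by -11.4.

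Counted over the 97 regions called in all libraries, 22 were higher with LPS (22.7%, where 16.4% of all such regions were) and 17 were lower (17.5%, background 18.3%). The higher calls lay away from starts: 19 of 64 member regions more than 1 kb from any start (29.7%, background 19.3%) and 3 of 33 at starts (9.09%, background 10.1%). Away from starts 10 of 64 were lower (15.6%, background 19.9%). The 3 at starts were those of Pfkfb3 (inner), Pfkfb4 and Pdk2. At starts 7 were lower (21.2%, background 14.7%), including those of Hif1a, Hk2, Hk3, Ldha and Bnip3. The median difference was 1.29 points for member regions and -0.442 for all, and 2.48 against -0.410 away from starts. Several regions belong to the same gene, so these are counts of regions and not of independent genes.

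Without Lamin-A, fewer member regions were called, and the KO lists were shorter (36436 to 39864 assigned regions against 44101 to 48153 in WT). Among untreated cells 1 region was gained in KO (0.518%, background 0.654%) and 6 were lost (3.11%, background 6.2%). After LPS 1 was gained (0.518%, background 0.61%) and 15 were lost (7.77%, background 6.77%), over 11 of the 32 genes (34.4%, background 22.2%). Genes with more regions have more chances of a lost region, and the share by gene was not adjusted for this. No member region was gained or lost in both treatments, where 0.0517% and 0.834% of all regions were. With every list cut to 44504 peaks, 6 regions were lost after LPS in place of 15, and 4 of these were among the 15. The lost regions with the highest percentiles were those inside Vhl and Eno1 given above and that inside Egln1 (chromosome 8, 124911892 to 124912297), which stood at 60.2 and 53.5 in WT untreated, 17.3 and 51.1 in WT LPS, and 29.0 and 35.999 in KO untreated. These 3 were also lost with LPS within KO, and both comparisons use the same KO LPS libraries. Requiring a −log10 p of at least 20, or cutting the lists to equal numbers of peaks, ended the KO against WT calls at Vhl and Egln1 but not at Eno1. The region gained in KO after LPS was the weak Hk1 region at 62313846, and that gained in untreated KO lay 6.5 kb beyond the 3′ end of Pfkfb3 (11464583 to 11465236; 19.8 and 17.7), where WT libraries held it only with LPS (40.2 and 30.8). Requiring a −log10 p of at least 20 ended both calls, and equal numbers of peaks ended the Pfkfb3 call.

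Among regions called in all libraries, the start regions of 7 enzymes and of Hif1a ranked higher in KO than in WT. Of the 97, 16 were higher in KO (16.5%, background 12.6%) and 7 lower (7.22%, background 8.04%). This balance depends on the ranking: within each whole list 5 were higher and 14 lower (background 4.83 and 18.1%), and by −log10 p 8 were higher and 8 lower (background 9.004 and 8.88%). Of the 33 at starts, 8 were higher (24.2%, background 15.3%) and 2 lower (6.06%, background 5.87%), and of the 64 elsewhere 8 were higher (12.5%, background 11.3%) and 5 lower (7.81%, background 9.06%). The 8 belonged to Hif1a, Gpi1, Aldoa, Gapdh, Pgam1, Eno1, Pkm and Ldha, while the start regions of Tpi1 and Eno2 were not called and that of Aldoc was lower. Ldha differed most, by 18.0 points, with the ranks given above: every KO library stood above every WT library of the same treatment. The Hif1a start region ranked 74.2 and 74.7 in WT untreated and 91.4 and 90.1 in KO untreated, and 73.6 and 63.6 in WT LPS and 79.5 and 81.9 in KO LPS, a mean difference of 14.2.

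At the Aldoa start (chromosome 7, 126798867 to 126799944) ranks were 46.1 and 37.5 in WT untreated, 39.8 and 50.1 in WT LPS, 63.4 and 58.2 in KO untreated, and 53.3 and 59.9 in KO LPS. At the Gapdh start (chromosome 6, 125165411 to 125166017) they were 49.2 and 41.8, 45.5 and 51.8, 55.4 and 60.0, and 63.8 and 68.1 in the same order. Aldoa cleaves the sugar bisphosphate and Gapdh oxidises the product, and both showed the genotypes apart in each treatment. At Pgam1, a mutase, the start region (chromosome 19, 41911486 to 41912140) ranked 69.4 to 75.8 in the 4 WT and 86.5 to 88.9 in the 4 KO libraries, and a region 5.2 kb after the start (41916905 to 41917276) was higher by 15.5. The Pkm, Gpi1 and Eno1 starts differed by 10.6, 7.42 and 4.82.

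These start calls depend on the measure. With ranks from the −log10 p in place of the fold, 4 of 33 start regions were higher in KO (background 6.84%): those of Hif1a, Pgam1 and Ldha kept the call (7.78, 3.67 and 10.2 points), those of Aldoa, Gapdh, Pkm and Gpi1 lost it (3.33, 1.09, 3.47 and 4.89), and that of Eno1 turned to lower (-4.37). With ranks among start regions alone, 6 of 33 were higher (all starts 11.6%). Starts made up more of the KO lists (20.8 to 23.0% of regions) than of the WT lists (18.4 to 20.3%), and the part of this in the start ranks was not tested. Both alternatives were chosen after the data were seen.

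**Figure D5:**
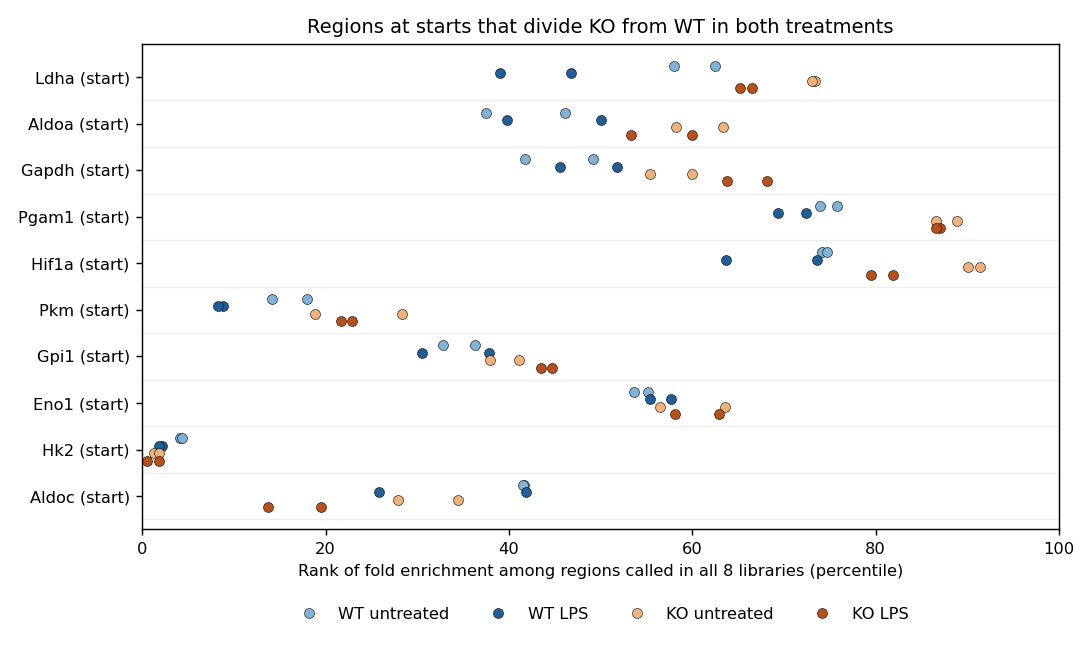
Rank of fold enrichment (percentile among regions called in all 8 libraries) for the 10 member start regions whose WT and KO libraries did not overlap within either treatment; each point is 1 library. In 8 of them, from Ldha (18.0 points) to Eno1 (4.82), KO is higher, and in the lower 2, Hk2 (-1.76) and Aldoc (-13.8), KO is lower.

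The regions lower in KO included the start of Aldoc, the aldolase form of brain (chromosome 11, 78322805 to 78323349), with ranks of 41.7 and 41.5 in WT untreated, 41.8 and 25.9 in WT LPS, 27.9 and 34.4 in KO untreated, and 19.5 and 13.8 in KO LPS. The most negative difference was at Hk2, 22.1 kb beyond the 3′ end (chromosome 6, 82702665 to 82703069): 69.0, 74.9, 74.0 and 67.4 in WT against 48.3, 43.1, 49.6 and 55.8 in KO, a difference of -22.1. An Hk1 region 28.7 kb after its nearest start (chromosome 10, 62311482 to 62311892) differed by -13.7. Over all 97 member regions the median difference between KO and WT was 0.475 points, against 0.498 for all regions, and at starts 2.23 against 1.06. The difference had opposite directions without overlap in untreated and LPS cells at 6 of the 97 (6.19%, background 4.67%), and the LPS difference had opposite directions in WT and KO at 2 (2.06%, background 3.23%).

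Other genes of the same pathways gave a comparison. Of 42 listed genes that are not members, 39 held 187 regions. With LPS, 8 of these were gained and 12 lost in WT (4.28 and 6.42%), and 11 were gained and 14 lost in KO (5.88 and 7.49%), where the shares over all assigned regions were 9.27 and 5.82% in WT and 7.3 and 5.38% in KO. In both genotypes 5 were gained (2.67%, background 4.33%) and 2 lost (1.07%, background 1.69%). Gained in both genotypes were regions of Arnt, the partner of Hif1a (inside the gene, chromosome 3, 95459390 to 95459745; percentiles 22.7 and 30.9 in WT LPS, 18.7 and 33.2 in KO LPS), of Cited2, which competes with Hif1a for its coactivators (chromosome 10, 17742565 to 17742927; 59.5 and 66.9, 48.1 and 57.2), and of the adenosine receptor gene Adora2b (chromosome 11, 62261269 to 62261801; 62.6 and 46.6, 62.8 and 54.6), besides weak ones of Bhlhe40 and Mxi1. Regions of the pyruvate carrier gene Mpc1 and of Slc16a7 were lost in both.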

How the data were processed

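The deposited files were 8 narrow peak lists, 1 per library, each called on its own. Per the submitters' processing notes, the tools were BWA 0.7.12 and MACS2, and the build was mm10; settings and the filter behind the lists are not given in the sources used here. Each peak carried a fold enrichment, a ratio over local background made by the authors' peak caller, with the deposited −log10 p and −log10 q and the deposited score, a whole number that follows the −log10 p; the authors gave the summit as a distance from the peak's start. All values were used only to rank or filter peaks. Median fold was 6.96 to 7.79 and the lowest −log10 p 7.35 to 7.93 over the libraries. Absence from a list means no kept call, and such DNA need not be closed.

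Peaks overlapping by at least 1 bp were merged with Python 3.11.15, pandas 2.3.3 and numpy 2.4.6, and the summits were set against 21887 protein-coding genes of RefSeq. A region was at a start when its summit lay within 1 kb of a start in the RefSeq promoter table for GRCm38.p6. Slc2a3 has no entry in that table. Figures were drawn with matplotlib 3.10.9, and the scripts were tested on simulated data.

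Values in every library were given for regions gained or lost with LPS in both genotypes (the 8 with the highest mean percentile), the 3 strongest gained and lost regions of each comparison, the 5 (LPS) or 3 (genotype) largest rank differences in each direction, and the strongest region of Hif1a, Slc2a1, Hk2, Pfkfb3, Gapdh, Pkm, Ldha and Pdk1. Other regions shown with values, such as those at starts, were chosen after their values were seen. The members, the other pathway genes and the markers were chosen with earlier results of these data known. The result of 1 marker list is not reported here. Alternatives were a −log10 p of at least 20, lists cut to 44504 peaks, a cover of at least 50% of the region, genes within 20 kb, the nearest gene span, other ranks, a replicate block and leaving out each library.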

Additional observations from a re-analysis of the deposited data

Results flagged for a closer look

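At several member regions all libraries of one group differed in one direction and all libraries of the other group in the opposite direction. None of these differences between groups was tested, and groups of 2 libraries are too small for a test of single outlying libraries. The LPS difference had opposite directions in WT and KO at 2 of 97 member regions (2.06%, background 3.23%), and the KO difference had opposite directions in untreated and LPS cells at 6 (6.19%, background 4.67%), so neither count stands far from the background.

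With LPS, the start region of Vegfa (chromosome 17, 46032194 to 46033047) differed by -2.80 points in WT and by 7.24 in KO. A region inside Gpi1 (chromosome 7, 34214635 to 34215059) differed by 5.94 in WT and by -14.7 in KO. The KO difference at that Gpi1 region was 6.91 in untreated and -13.7 in LPS cells, and at its neighbour (34213324 to 34213652) 4.09 and -11.2. At Pfkp, the platelet form of phosphofructokinase, it was -9.00 in untreated and 9.89 in LPS cells at one region (chromosome 13, 6618629 to 6619160), and 9.72 and -5.41 at the start region (6648559 to 6649347). It was -1.06 and 14.5 at a region of Eno1 (chromosome 4, 150239764 to 150240310), and 7.14 and -2.41 at the start region of Eno2, the enolase of neurons (chromosome 6, 124769315 to 124769918).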

How the results depend on the processing

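Several counts of calls changed when weak peaks were left out or the lists were made equal in length. With a −log10 p of at least 20, 9 regions in place of 5 were lost with LPS in WT, 7 in place of 11 were lost in KO, and 3 in place of 1 were gained in untreated KO against WT. With equal numbers of peaks, 10 were lost with LPS in WT, 3 were gained in untreated KO against WT, and 4 gained and 6 lost in KO against WT after LPS, in place of 1 and 15. Under both settings the 1 region first gained in untreated KO was not among the 3. With genes within 20 kb (145 regions), 2 were lost with LPS in WT, 10 gained and 7 lost with LPS in KO, 0 gained in KO against WT after LPS, and 4 ranked lower in KO. With ranks from the −log10 p, 5 start regions were higher with LPS in place of 3, and 8 regions, 4 of them at starts, were higher in KO in place of 16 and 8. With ranks within each whole list, 5 were higher and 14 lower in KO. The cause of these shifts was not tested. With a cover of at least 50%, the regions gained with LPS at Pfkfb3 numbered 5 in place of 3 in KO and 4 in place of 2 in both genotypes, and 2 member regions in place of 1 were lost in both. That last count was 3 with a −log10 p of at least 20 and 4 with equal numbers of peaks.

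The replicate numbers did not pair the libraries (correlations of the replicate differences between groups from -0.0772 to 0.0335). With the number as a replicate block the gained and lost counts were the same, and ranks called 27 higher and 18 lower with LPS, and 22 higher and 15 lower, in place of 7, in KO.

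Leaving out 1 library asks for less agreement, so gained and lost counts can only keep or grow. Gained and lost counts with LPS ranged from 23 to 32 and 7 to 13 in WT and from 19 to 21 and 14 to 18 in KO. In KO against WT they ranged from 1 to 6 and 9 to 14 untreated, and from 1 to 5 and 16 to 28 after LPS. Ranks gave 24 to 29 higher and 17 to 23 lower with LPS (4 to 6 and 7 to 10 at starts), and 17 to 24 higher and 7 to 15 lower in KO (8 to 12 and 2 to 4 at starts). The libraries whose absence moved a count by over 1.5 times were WT LPS 2 (32 gained in WT, 28 lost in KO after LPS, 13 ranked lower in KO), WT LPS 1 (13 lost in WT, 5 gained in KO after LPS, 6 starts higher with LPS, 11 ranked lower in KO), WT untreated 1 (11 lost in WT, 14 lost in untreated KO), KO untreated 1 (4 gained in untreated KO, 5 starts higher with LPS), KO untreated 2 (18 lost in KO, 6 gained and 12 lost in untreated KO, 5 starts higher with LPS), KO LPS 1 (2 gained and 26 lost in KO after LPS, 15 ranked lower in KO, 4 of them at starts) and KO LPS 2 (3 gained in KO after LPS). No call of a region chosen by the naming rule turned to the opposite direction under these alternatives, while outside that rule the KO against WT calls at the Eno1 start (-4.37) and at an Slc2a3 region (-0.969) did with ranks from the −log10 p. Read totals were not used here, and the part of depth in the calls of weak peaks was not tested.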
